A study of Mus musculus with 6 samples.

Results

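The 36 genes described here encode ubiquitin E3 ligases of the RING, HECT and U-box classes in mouse embryonic stem cells (ESCs). They were chosen by name from known functions, as E3 ligases outside the cullin, CBL and Polycomb groups, and many of their proteins work with the UBE2D family of ubiquitin-conjugating (E2) enzymes. Each of the 36 was found once by its Ensembl identifier among the 37620 genes of the table. All 36 passed the filter on low counts that left 16023 genes for testing, and the lowest count of any member in any library was 144. By catalytic domain there were 20 RING members, 14 HECT members, 1 U-box member (*Stub1*) and 1 member with the atypical ligase module of *Ubr4*.

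An E3 ligase brings a ubiquitin-charged E2 to a substrate. RING and U-box ligases hold the E2 so that ubiquitin passes straight to the substrate, whereas a HECT ligase first takes the ubiquitin onto a cysteine of its own. UBE2D3 is an E2 that serves ligases of all these classes, and in ESCs such ligases act in protein quality control, signalling, DNA repair and the silencing of retroelements.

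PolyA RNA was sequenced from E14 ESCs, a line of strain 129/Ola, in 3 libraries of wild-type (WT) cells and 3 libraries of *Ube2d3*-S138A cells, whose UBE2D3 carries alanine in place of a serine that can be phosphorylated. The change was made in the endogenous gene by CRISPR/Cas9, and both genotypes were grown in 15% serum, on gelatin and with LIF. The libraries took 500 ng of RNA each and were strand-specific, and the comparison asks how the substitution bears on the ESC transcriptome. Nothing in the labels says that the 3 libraries of a genotype were separate cultures, so p-values measure only the spread between these libraries, which may be technical. The labels name no clone. The paper's functional work on ESCs compared wild-type cells with the S138A clone and a revertant derived from it. It does not describe this sequencing, and the series holds no revertant library. If the S138A libraries come from a single edited clone, the clone and the substitution cannot be told apart. Gene counts do not show a point substitution, so the genotype labels could not be checked. The S138A columns carry no replicate number and are called S138A A, B and C.

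Library totals lay between 33227593 and 37169770 counts. The first principal component (57.2% of the variance) set 1 library of each genotype, WT 3 and S138A C, apart from the other 4, and the second (25.6%) separated the genotypes. Levels are TMM-scaled counts per 1000000 counts of the library (CPM). None of 10 ESC markers was under 1 CPM in all libraries, and their summed level was 7142 to 7918 CPM in WT and 7316 to 7957 CPM in S138A. Fibroblast or feeder markers summed to 43 to 72.6 CPM in WT and 79.2 to 115 CPM in S138A, with *Postn*, *Lum* and *Dcn*, 3 of the 8, under 1 CPM in all 6 libraries. Primitive endoderm markers (7 genes) summed to 17.8 to 21.7 and 20.9 to 27.8 CPM, and trophoblast markers (4 genes) to 10.4 to 12.1 and 16.3 to 28 CPM. The part of such cells in the differences below was not tested. In bulk RNA, fewer cells that express a gene and less of its RNA per cell cannot be told apart.

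The coding sequence shows which enzymes carry the HECT mechanism. All 14 HECT members held the threonine-cysteine motif of the catalytic site within their last 120 residues. The 33 coding bases around that codon are printed from GENCODE M21 transcripts (build GRCm38) for the 3 most abundant HECT members and for *Itch*, *Ube3a* and *Ube3b*, whose values are described below, with the cysteine codon in capitals:
Nedd4 (chromosome 9, plus strand): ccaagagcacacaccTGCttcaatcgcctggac
Itch (chromosome 2, plus strand): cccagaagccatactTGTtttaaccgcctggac
Trip12 (chromosome 1, minus strand): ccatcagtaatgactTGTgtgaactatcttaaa
Huwe1 (chromosome X, plus strand): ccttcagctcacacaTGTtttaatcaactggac
Ube3a (chromosome 7, plus strand): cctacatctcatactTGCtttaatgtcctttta
Ube3b (chromosome 5, plus strand): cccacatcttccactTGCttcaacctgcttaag
Of the 13 HECT members for which this stretch was read, 7 had the cysteine codon split between 2 exons (*Nedd4*, *Itch*, *Smurf1*, *Smurf2*, *Wwp1*, *Wwp2* and *Huwe1*) and 6 had it within 1 exon (*Ube3a*, *Ube3b*, *Ube3c*, *Herc1*, *Herc2* and *Trip12*). The codon spans chr9:72746478-72747126 in *Nedd4* and lies at chr7:59304829-59304831 in *Ube3a* and chr5:114419568-114419570 in *Ube3b*. Among the 20 RING members, the spaced cysteine and histidine pattern of a RING finger was found in 15 translated sequences, and not in *Traf6*, *Cnot4*, *Trim24*, *Ubr1* or *Ubr2* with the spacing searched.

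Sequence shared with other genes was searched by exact matches, which leave out overlaps of exons in the genome. In 22 of 36 members no run of 50 bases of the longest coding transcript occurred in a transcript of another gene. The shared part was over 5% in 5 members, at 30.7% in *Rnf8*, 20% in *Siah1a*, 13.4% in *Siah1b*, 7.34% in *Birc3* and 5.57% in *Wwp1*. *Siah1a* and *Siah1b*, a pair of near-identical copies that degrade substrates in signalling and hypoxia, differed at 25 of 846 coding bases (97.04% identity) and at 6 of 282 residues, with 141 bases as the longest identical run. The 60 coding bases with the most differences are printed to show how little separates reads of the copies, with the 4 differing bases in capitals:
Siah1a (chr8:86725516-86725575, minus strand): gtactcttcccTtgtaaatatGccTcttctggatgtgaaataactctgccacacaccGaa
Siah1b (chrX:164071744-164071803, minus strand): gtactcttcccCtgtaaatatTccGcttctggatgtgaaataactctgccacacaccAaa
How the counting treated strand and reads of more than 1 gene is not given in the sources used here, so the split between these copies is uncertain. Exons of 8 members overlap exons on the other strand (*Ube3a*, *Stub1*, *Rnf40*, *Siah1a*, *Ubr1*, *Herc1*, *Wwp1* and *Nedd4l*), and without strand such reads could not be told apart. Exons of *Smurf2*, *Wwp2*, *Huwe1*, *Stub1*, *Rnf8* and *Ubr4* overlap exons of other genes on the same strand.

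The 36 genes spanned a 407-fold range of level in WT cells. Levels between genes are given as CPM divided by the length in kilobases of the longest coding transcript. Of the 36, 4 lay above 100 CPM per kilobase, 22 between 10 and 100, and 10 below 10. Of the 35 neighbouring steps in the WT order, 11 separated genes whose 3 WT libraries did not overlap.

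*Trim28*, the RING corepressor of KRAB zinc finger proteins that silences retroelements in ESCs, was the highest. Its level was 860, 858 and 611 CPM per kilobase in WT 1, 2 and 3 and 812, 844 and 444 in S138A A, B and C. WT 3 and S138A C were the lowest libraries of their genotypes. *Nedd4*, the HECT ligase that gives the NEDD4 family its name and sorts membrane proteins, came second with 330, 363 and 296 CPM per kilobase in WT and 301, 299 and 344 in S138A. The groups overlapped for both genes. *Rnf4*, a RING ligase that recognises SUMO chains, was at 117, 114 and 100 CPM per kilobase in WT and at 111, 117 and 94.6 in S138A. *Trip12*, a HECT ligase of the ubiquitin fusion degradation pathway, was at 121, 117 and 88.8 CPM per kilobase in WT and at 108, 100 and 84.3 in S138A. *Rnf4* and *Trip12* did not differ from each other beyond the spread of the WT libraries. *Huwe1*, a giant HECT ligase with substrates such as MCL1, had 69.7, 66.2 and 52 CPM per kilobase in WT and 66.7, 66.3 and 58.6 in S138A, again with the groups overlapping. *Stub1* (CHIP), the U-box ligase that ubiquitinates clients of HSP70 and HSP90, ranked sixth with 47, 45.9 and 40.4 CPM per kilobase in WT and 53.8, 56.5 and 52.6 in S138A, where all 3 libraries lay above all WT libraries. *Trim28*, *Nedd4* and *Rnf4* together held 59.1 to 66.4% of the summed level of the 36 members in each library.

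**Figure D1:**
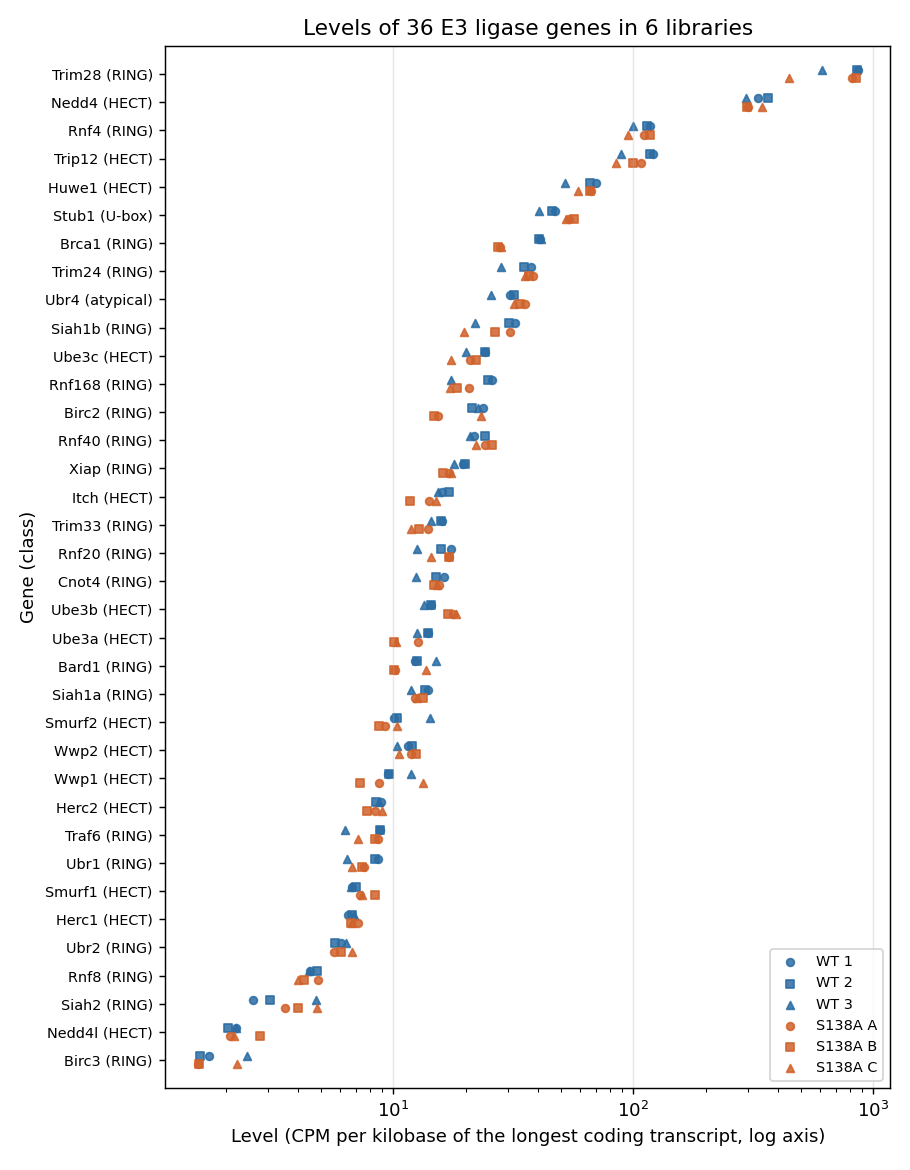
Level of each E3 ligase gene in each library, in CPM per kilobase of the longest coding transcript on a log axis, ordered by the WT mean, with blue points for WT and orange points for S138A libraries (class in brackets). *Trim28* lies above all other members in all 6 libraries and *Birc3* has the lowest mean in both genotypes, a 407-fold range in WT.

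At the low end, *Rnf8*, the RING ligase that starts ubiquitin signalling at DNA breaks, had 4.5, 4.81 and 4.46 CPM per kilobase in WT and 4.84, 4.23 and 4.01 in S138A. *Siah2*, a RING ligase of the hypoxia response, had 2.6, 3.06 and 4.75 CPM per kilobase in WT and 3.55, 4.01 and 4.8 in S138A. WT 3 and S138A C were the highest libraries of their genotypes for *Siah2*. *Nedd4l*, a HECT ligase of ion channels, was at 2.21, 2.04 and 2.2 CPM per kilobase in WT and 2.08, 2.78 and 2.17 in S138A. *Birc3*, an inhibitor of apoptosis protein that also acts in NF-kB signalling, was lowest with 1.71, 1.57 and 2.45 CPM per kilobase in WT and 1.54, 1.55 and 2.23 in S138A. The groups overlapped for all 4 genes. The order depends on the transcript chosen: with the mean length of all coding transcripts in place of the longest, *Ube3a* moved from 13.5 to 60.99 CPM per kilobase and from rank 21 to rank 7, and *Brca1* from 40.9 to 108 CPM per kilobase and from rank 7 to rank 5. *Trip12* moved from 108.9 to 273.6 CPM per kilobase and passed *Rnf4*, which moved from 110.5 to 141.6, so that the top 3 became *Trim28*, *Nedd4* and *Trip12*.

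Between these ends, *Brca1*, *Trim24*, *Ubr4* and *Siah1b* had WT means of 40.9, 33.4, 29.4 and 28 CPM per kilobase. *Ube3c*, *Rnf168*, *Birc2*, *Rnf40* and *Xiap* lay between 19.1 and 22.7 CPM per kilobase, and *Itch*, *Trim33*, *Rnf20*, *Cnot4*, *Ube3b*, *Ube3a*, *Bard1* and *Siah1a* between 13.1 and 16.1. *Smurf2*, *Wwp2* and *Wwp1* had 10.3 to 11.6 CPM per kilobase, and *Herc2*, *Traf6*, *Ubr1*, *Smurf1*, *Herc1* and *Ubr2* had 6.02 to 8.69. Neighbours from *Itch* down to *Wwp1* did not differ beyond their spread. As classes, the 20 RING members summed to 53.6 to 64.7% of the level per kilobase and the 14 HECT members to 30.6 to 40.7%. The RING sum was 1286, 1273 and 978 CPM per kilobase in WT and 1198, 1227 and 801 in S138A. WT 3 and S138A C had the lowest RING sums. *Trim28* alone gave 860, 858 and 611 of the WT sums and 812, 844 and 444 of the S138A sums. In every library it outweighed all other RING members together. The RING share, and its low sums in WT 3 and S138A C, were therefore largely those of *Trim28* and not of the class.

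No member passed the threshold between S138A and WT (adjusted p under 0.05, edgeR's quasi-likelihood test with Benjamini-Hochberg adjustment over 16023 genes), nor did any gene of the table (0%). At an unadjusted p under 0.05 there were 5 of the 36 members (13.9%) and 2270 of all genes (14.2%). limma-voom called 0 members and 0 genes, with 5 members and 2199 genes at an unadjusted p under 0.05, and DESeq2 called 781 genes. The median standard error of the members was 0.121 on the log2 scale, against 0.216 over all genes tested. It was similar, at 0.14 and 0.125, in the lists of E2 enzymes and of partners described below. The members' median absolute log2 fold change was 0.135 (0.216 over all genes, 0.102 and 0.113 in those lists). The members' fold changes ran from -0.56 to 0.32, with 15 positive, 21 negative and a median of -0.06 (0.02 over all genes).

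Alternative fits called some members. A replicate block in the fit paired WT 1, 2 and 3 with S138A A, B and C by the last digit of the column names. No label gives this pairing, and the data do not fix it for numbers 1 and 2. With this block, 2 of the 36 members were higher in S138A (*Ube3b* and *Stub1*, where 10.7% of all genes were called higher). With it 3 were lower (*Brca1*, *Ube3a* and *Trim33*, where 9.13% were called lower). DESeq2 called 1 member higher (*Ube3b*, 2.59% of all genes) and 1 lower (*Brca1*, 2.28%). Without WT 3 and S138A C, the remaining 4 libraries gave 3 members called higher (*Ube3b*, *Stub1* and *Siah2*, beside 15.3% of all genes) and 10 called lower (*Brca1*, *Bard1*, *Birc2*, *Xiap*, *Rnf168*, *Trim33*, *Itch*, *Nedd4*, *Trip12* and *Ubr1*, beside 14.3%). Groups of 3 libraries did not overlap for 7 members. Of these, 3 lay above WT in S138A (*Ube3b*, *Stub1* and *Smurf1*, 11.3% of all genes) and 4 below (*Brca1*, *Xiap*, *Itch* and *Trim33*, 10.9%).

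**Figure D2:**
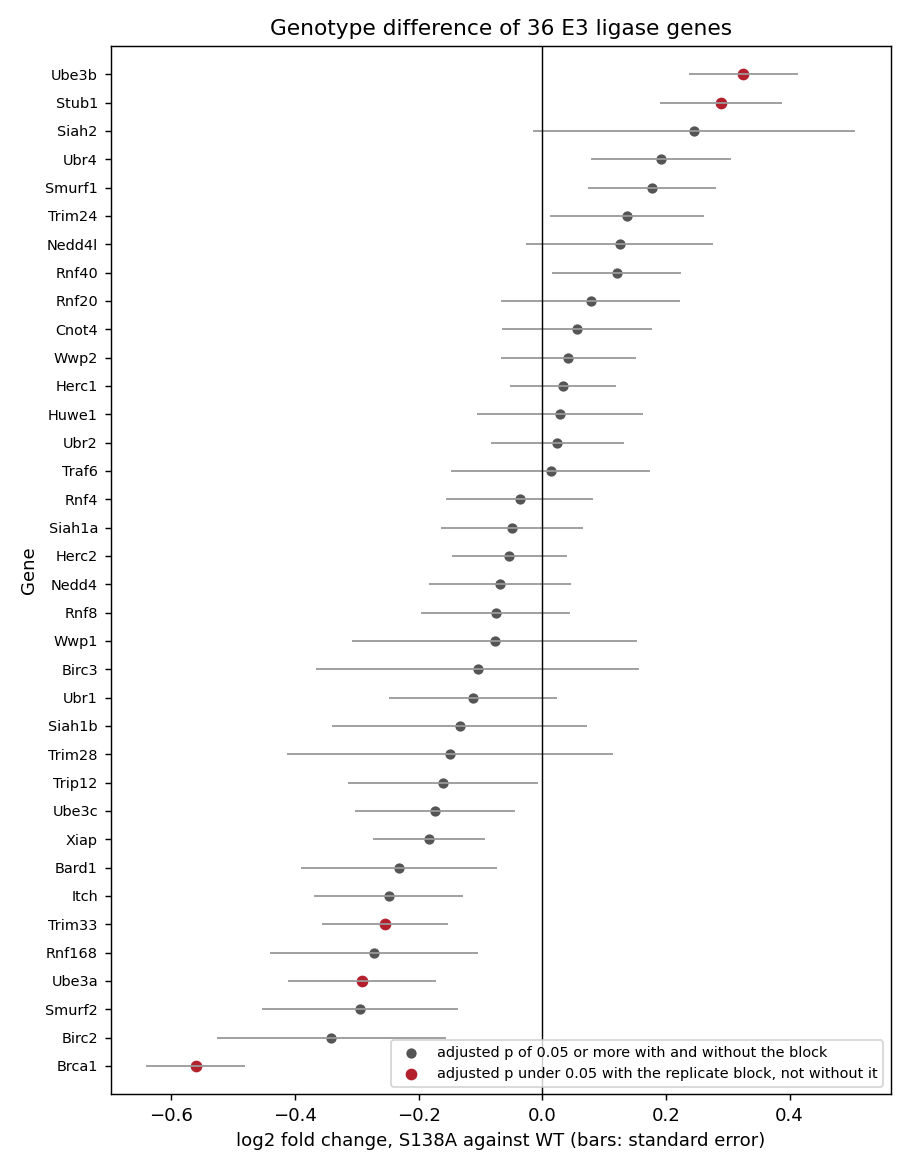
log2 fold change of S138A against WT for the 36 E3 ligase genes from edgeR's fit of all 6 libraries, ordered by size, with bars of 1 standard error. *Brca1* stands at the bottom at -0.56, and the 5 genes in red (*Brca1*, *Ube3a*, *Trim33*, *Stub1* and *Ube3b*) did not pass the threshold there but did with the replicate block.

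*Brca1* had the largest difference of the 36 over all 6 libraries. This RING ligase acts with BARD1 in homologous recombination. It was at 269, 265 and 272 CPM in WT 1, 2 and 3 and at 183, 180 and 184 CPM in S138A A, B and C. The groups were far apart and the libraries within each were close, with coefficients of variation of 1.24% in WT and 1.04% in S138A, and WT 3 and S138A C each lay 0.02 on the log2 scale above the mean of the other libraries of their genotype. The log2 fold change was -0.56 ± 0.08 (SE), a fitted difference of -32.2%, with an adjusted p of 0.169. The adjusted p was 0.00535 with the replicate block, 2.92e-13 with DESeq2, 0.176 with limma-voom and 0.000543 in the 4 libraries without WT 3 and S138A C, and over all 14 alternatives the log2 fold change stayed between -0.58 and -0.53 while the adjusted p ran from 2.92e-13 to 0.623. No run of 50 bases of *Brca1* occurred in another gene and no exon overlapped it on the other strand.

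The start of *Brca1* faces that of *Nbr1*, a selective autophagy receptor, on the other strand. The bases between them are printed because *Brca1* is the member with that difference (RefSeq promoter, GRCm38, chr11:101551956-101552148, minus strand, 193 bases up to the *Brca1* start, with the CCAAT motif in capitals):
Brca1: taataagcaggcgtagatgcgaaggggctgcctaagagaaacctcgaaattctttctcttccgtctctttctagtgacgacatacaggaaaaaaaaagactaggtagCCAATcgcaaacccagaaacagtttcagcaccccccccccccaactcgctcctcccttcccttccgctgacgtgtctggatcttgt
This stretch held 9 CpG sites. The neighbour *Nbr1* had a log2 fold change of -0.26 ± 0.08 (SE) with an adjusted p of 0.262, and 0.0282 with the replicate block. RefSeq promoters were found for 31 of the 36 members (41 starts), and 4 motifs were searched on both strands in the 250 bases before each start, with overlapping matches allowed. The GC box (GGGCGG) was in 68.3% of the members' windows and in 32.7% of all 32851 windows. The CCAAT box was in 24.4% of the members' windows and 33.8% of all, the TATA box (TATAAA) in 7.32% and 12.4%, and the E-box (CACGTG) in 7.32% and 6.02%. The median number of CpG sites was 21 in the members' windows and 6 in all. These matches are a description of the letters in the windows. The 32851 windows were not limited to genes that passed the filter on low counts, as all members did. Overlapping windows of the same gene, such as those of *Herc2*, were counted separately. Whether the shares differ from those of other expressed genes was not tested.

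*Ube3b*, a HECT ligase found at mitochondria, was at 75, 74.4 and 69.6 CPM in WT and at 91.7, 87.9 and 94.7 CPM in S138A. All S138A libraries lay above all WT libraries. The log2 fold change was 0.32 ± 0.09 (SE), with an adjusted p of 0.216, and of 0.0238 with the replicate block and 0.0161 with DESeq2 (0.0132 to 0.626 over the 14 alternatives). *Stub1*, whose levels per kilobase are given above, was at 84.8, 82.8 and 72.8 CPM in WT and at 97.1, 102 and 94.8 CPM in S138A, also without overlap. Its log2 fold change was 0.29 ± 0.1 (SE), with an adjusted p of 0.279, and of 0.0294 with the replicate block (0.0183 to 0.631 over the alternatives). *Jmjd8*, whose exons overlap those of *Stub1* on the other strand, was at a log2 fold change of -0.02 with an adjusted p of 0.97.

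*Trim33*, a RING ligase that binds SMAD proteins and chromatin, was at 142, 140 and 128 CPM in WT and at 124, 113 and 106 CPM in S138A. The S138A libraries were below all WT libraries, and WT 3 was the lowest of its group. The log2 fold change was -0.25 ± 0.1 (SE), with an adjusted p of 0.332, and of 0.0353 with the replicate block (0.0219 to 0.722 over the alternatives). *Ube3a*, the HECT ligase lost in Angelman syndrome, was at 138.1, 137.9 and 123.9 CPM in WT and at 125.2, 99.8 and 101.8 CPM in S138A. S138A A lay just above WT 3, so that the groups overlapped. The log2 fold change was -0.29 ± 0.12 (SE), with an adjusted p of 0.34, and of 0.04 with the replicate block (0.04 to 0.721 over the alternatives). *Itch*, a NEDD4 family ligase of immune signalling, was at 85, 90.6 and 81.5 CPM in WT and at 75, 62 and 79.4 CPM in S138A. All S138A libraries were below WT, with a log2 fold change of -0.25 ± 0.12 (SE), an adjusted p of 0.408 and, with the replicate block, 0.118 (0.0221 to 0.772 over the alternatives).

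**Figure D3:**
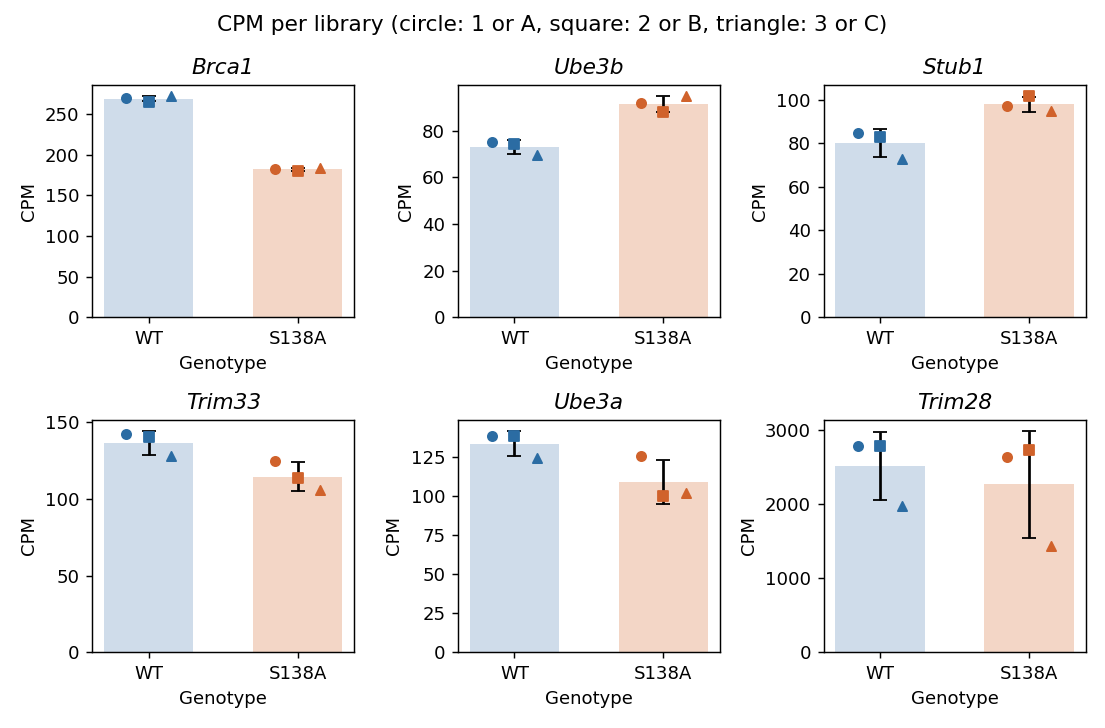
CPM of 6 E3 ligase genes in each library. Bars are means of 3 libraries from an axis at 0, error bars are the SD, and the marker shape gives the library. *Brca1* libraries lie within 265 to 272 CPM in WT and 180 to 184 in S138A, whereas the *Trim28* libraries are spread widely within each genotype, with WT 3 at 1983 and S138A C at 1440 CPM.

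By role, the 5 DNA damage members (*Brca1*, *Bard1*, *Rnf8*, *Rnf168* and *Rnf4*) all had negative log2 fold changes, with a median of -0.23. Those of *Rnf4* and *Rnf8* were smaller in size than their SE (-0.04 ± 0.12 and -0.08 ± 0.12). Of all 16023 genes tested, 7621 had negative values. With the replicate block 1 of the 5 members, *Brca1*, was called lower (9.13% of all genes). *Bard1*, the RING partner of BRCA1, was at 69.6, 70.6 and 85.3 CPM in WT and 57.5, 56.9 and 77.7 CPM in S138A. WT 3 and S138A C were the highest libraries of their genotypes, and the groups overlapped (log2 fold change -0.23 ± 0.16 (SE), adjusted p = 0.556, and 0.0542 with the replicate block). *Rnf168*, which extends the ubiquitin mark begun by RNF8, was at 115, 111 and 77.4 CPM in WT and 91.9, 82.7 and 76.7 CPM in S138A. Here WT 3 lay among the S138A libraries. Over all 6 libraries the log2 fold change was -0.27 ± 0.168 (SE), with an adjusted p of 0.516 by edgeR. Without WT 3 and S138A C, which were set apart from these same data, it was -0.37 with an adjusted p of 0.00708. In those 4 libraries 14.3% of all genes were called lower.

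The 7 NEDD4 family members (*Nedd4*, *Nedd4l*, *Itch*, *Smurf1*, *Smurf2*, *Wwp1* and *Wwp2*) had 3 positive and 4 negative log2 fold changes, and 0 were called with the replicate block. Without WT 3 and S138A C, which the first principal component of these data set apart, *Nedd4* and *Itch* were called lower (14.3% of all genes). Over all 6 libraries *Nedd4* had a log2 fold change of -0.07 ± 0.115 (SE), with an adjusted p of 0.83 by edgeR. *Smurf1* and *Smurf2*, paralogs that act on receptors and SMAD proteins of the TGF-beta and BMP pathways, pointed in opposite directions. *Smurf1* was at 36.5, 38.1 and 36.2 CPM in WT and 39.3, 45.6 and 40.2 CPM in S138A, above WT in each library. *Smurf2* was at 53.5, 55.1 and 75.3 CPM in WT and 48.9, 46 and 55.1 CPM in S138A, overlapping, with WT 3 the highest. Neither passed the threshold (log2 fold changes 0.18 ± 0.1 and -0.29 ± 0.16 (SE), adjusted p = 0.49 and 0.46, and 0.141 and 0.0524 with the replicate block). Of the other 7 HECT members (*Huwe1*, *Ube3a*, *Ube3b*, *Ube3c*, *Herc1*, *Herc2* and *Trip12*), 3 were positive and 4 negative.

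The 6 members that act on transcription and histones were *Trim24*, *Trim28*, *Trim33*, the histone H2B ligases *Rnf20* and *Rnf40*, and *Cnot4* of the CCR4-NOT complex. Of these, 4 had positive and 2 negative log2 fold changes, and *Trim33* was the 1 member called with the replicate block. *Trim28* had a log2 fold change of -0.15 ± 0.26 (SE), with an adjusted p of 0.84. The 4 quality control and N-degron members (*Stub1*, *Ubr1*, *Ubr2* and *Ubr4*) had 3 positive values and a median of 0.11. *Ubr4* was at 489, 507 and 408 CPM in WT and 562, 536 and 506 CPM in S138A, overlapping only through WT 2 and S138A C. The 4 members of apoptosis and NF-kB signalling (*Xiap*, *Birc2*, *Birc3* and *Traf6*) ran from -0.34 to 0.01. *Birc2*, which restrains non-canonical NF-kB signalling, was at 78.8, 70.7 and 75.4 CPM in WT and 50.9, 49.3 and 77.3 CPM in S138A. S138A C was within the WT range. Over all 6 libraries the log2 fold change was -0.34 ± 0.185 (SE), with an adjusted p of 0.462 by edgeR. Without S138A C and WT 3, which were set apart from these same data, it was -0.58 with an adjusted p of 0.00164. In those 4 libraries 14.3% of all genes were called lower. The 3 SIAH genes ran from -0.13 to 0.25, and 0 were called with the replicate block.

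The libraries WT 3 and S138A C stood apart in these genes as well. They were both below the other libraries of their genotype in 17 of 36 members (47.2%, beside 33.8% of all genes) and both above in 7 (19.4%, beside 34%). The 17 included *Trim28*, where log2 of WT 3 over the mean of WT 1 and 2 was -0.49 and log2 of S138A C over the mean of S138A A and B was -0.9, and *Siah1b* with -0.5 and -0.53. The 7 included *Siah2* with 0.71 and 0.33, *Birc3* with 0.54 and 0.48, and *Wwp1* with 0.32 and 0.73. What sets these libraries apart is not named in the labels. Neural markers (3 genes) summed to 104 CPM in WT 3 and 87.3 CPM in S138A C, against 197 to 217 CPM in the other 4 libraries. Mesoderm markers (4 genes, *Mesp1* under 1 CPM in all) summed to 5.53 and 5.93 CPM in those libraries, against 8.78 to 13.8 CPM, and ESC markers to 7918 and 7957 CPM, against 7142 to 7475 CPM. Their part in the values of these libraries was not tested. The Spearman correlation of these log2 ratios with coding length over the 36 genes, which share the libraries, was 0.12 for WT 3 and 0.04 for S138A C.

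**Figure D4:**
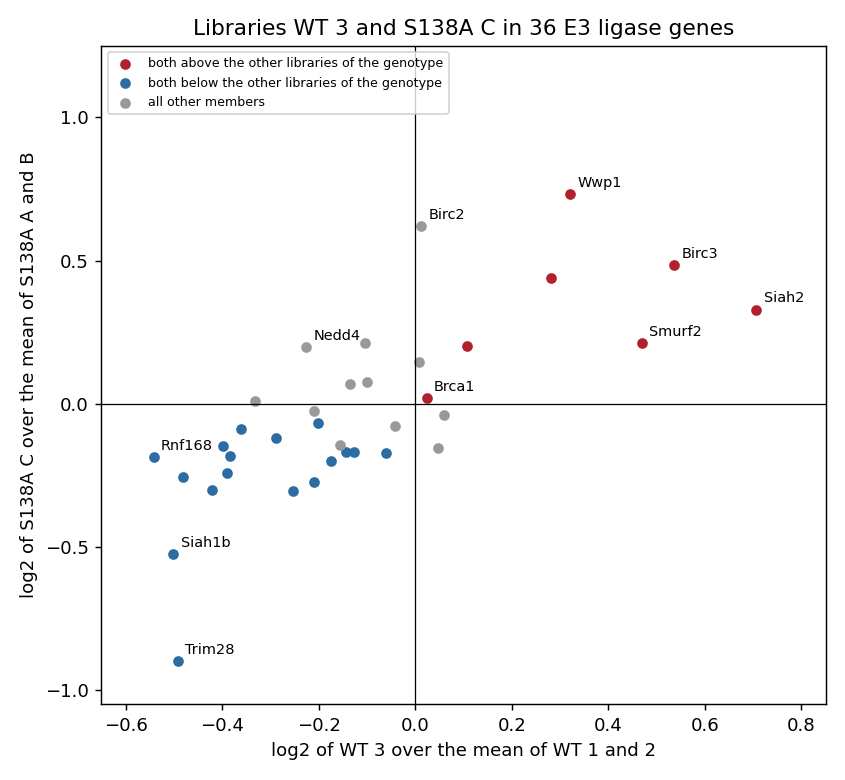
For each of the 36 E3 ligase genes, log2 of WT 3 over the mean of WT 1 and 2 (x axis) and log2 of S138A C over the mean of S138A A and B (y axis). Blue points (17 genes, *Trim28* the farthest down) were below, and red points (7 genes) above, both other libraries of their genotype in each case. *Brca1* lies close to 0 on both axes.

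Ratios of counts within 11 pairs of partners or paralogs need no scaling between libraries. In 3 pairs the groups did not overlap, and each of them holds a member whose own groups did not overlap (*Brca1*, *Smurf1* and *Trim33*). Among single genes, 11.3% of all tested lay above WT without overlap and 10.9% below. No such share was computed for ratios of other genes. The *Brca1*/*Bard1* ratio was 3.87, 3.75 and 3.18 in WT 1, 2 and 3 and 3.18, 3.16 and 2.37 in S138A A, B and C (means 3.6 ± 0.367 and 2.9 ± 0.465, SD, n = 3). WT 3 and S138A A were at nearly the same ratio. The *Smurf1*/*Smurf2* ratio was 0.682, 0.691 and 0.48 in WT and 0.804, 0.992 and 0.731 in S138A (0.618 ± 0.119 and 0.842 ± 0.135). The *Trim24*/*Trim33* ratio was 1.06, 1.01 and 0.891 in WT and 1.24, 1.31 and 1.35 in S138A (0.987 ± 0.0878 and 1.3 ± 0.055). It was higher in each S138A library than in every WT library, by 0.40 on the log2 scale. In each of these 3 pairs the two-sided exact permutation p was 0.1, the smallest that 3 against 3 libraries can give, and 0.367 after adjustment over the 11 pairs, so this test could not reach 0.05.

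In the other 8 pairs the groups overlapped. *Rnf20*, whose protein pairs with RNF40, had 0.494 to 0.657 times the count of *Rnf40* in WT and 0.527 to 0.574 times in S138A. *Nedd4* had 109 ± 15.4 times the count of its paralog *Nedd4l* in WT and 96.6 ± 18.5 times in S138A (SD, n = 3). *Birc2* had 14 ± 2.96 and 11.4 ± 0.489 times the count of *Birc3*. *Wwp1*/*Wwp2* was 1.71 in WT 3 and 1.88 in S138A C, against 0.876 to 1.23 in the other 4 libraries. *Siah1a*/*Siah1b* was 0.525 ± 0.0637 and 0.567 ± 0.129, a ratio that includes the way reads of the copies were divided. *Rnf8*/*Rnf168*, *Ubr1*/*Ubr2* and *Herc1*/*Herc2* had WT means of 0.252, 1.33 and 0.763 and S138A means of 0.281, 1.21 and 0.812.

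**Figure D5:**
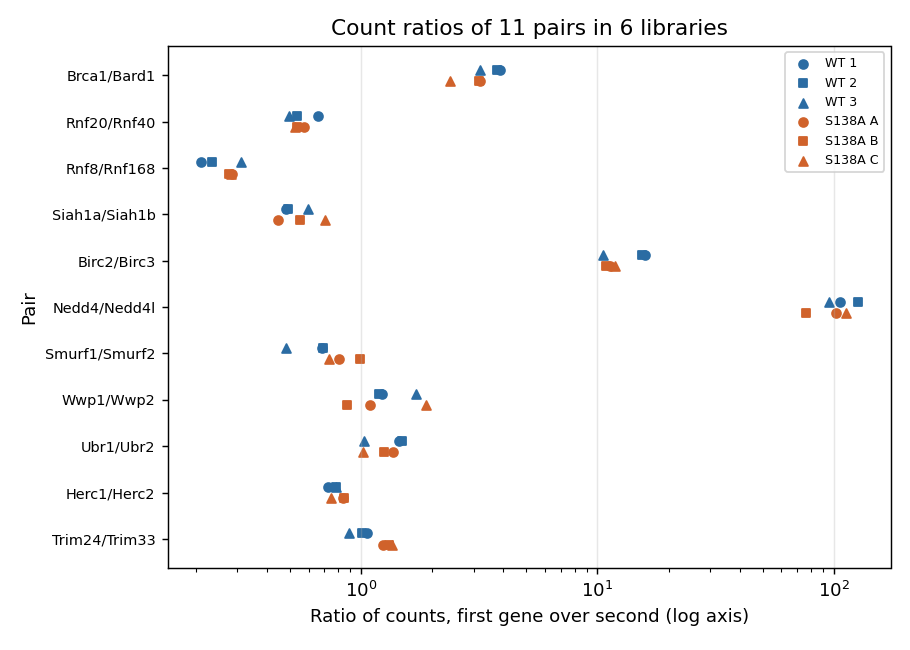
Ratio of counts, first gene over second, in each library for 11 pairs of E3 ligase genes, on a log axis, with blue points for WT and orange points for S138A. The groups are separate in *Brca1*/*Bard1* (only just), *Smurf1*/*Smurf2* and *Trim24*/*Trim33*.

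Lists of genes that work with these ligases were counted in the same fits. Of 28 E2 enzymes, 27 were tested. By edgeR 0 were called between S138A and WT, with 4 at an unadjusted p under 0.05 (14.2% of all genes). With the replicate block 1 was higher and 5 were lower (10.7% and 9.13% of all genes), and with DESeq2 0 were higher and 2 lower (2.59% and 2.28%). *Ube2g1*, an E2 of K48-linked chains, was at 117, 123 and 118 CPM in WT and 88.1, 77.4 and 70.3 CPM in S138A. It was below WT in each S138A library (log2 fold change -0.60 ± 0.11 (SE), adjusted p = 0.181, and 0.00861 with the replicate block). *Ube2v2*, the cofactor of UBE2N in K63-linked chains, was at 121, 118 and 125 CPM in WT and 98.4, 86.3 and 88.8 CPM in S138A, also below WT in each library (-0.41 ± 0.09, adjusted p = 0.191, and 0.0129 with the block). *Ube2k* and *Ube2z* did not overlap either, with log2 fold changes of -0.31 and -0.32 and adjusted p of 0.279 and 0.285, or 0.0275 and 0.0358 with the block. *Ube2d3* itself had a log2 fold change of -0.06 ± 0.26 (SE), with an adjusted p of 0.945.

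Of 30 partners, adaptors and inhibitors of the members, all tested, edgeR called 0, with 5 at an unadjusted p under 0.05 (14.2% of all genes). With the replicate block 2 were higher and 5 lower (10.7% and 9.13% of all genes), and with DESeq2 2 were higher and 2 lower (2.59% and 2.28%). *Hsp90aa1*, an HSP90 chaperone whose clients STUB1 ubiquitinates, was at 10030, 9186 and 8957 CPM in WT and 6829, 6626 and 5622 CPM in S138A. *Hsp90ab1*, its constitutive paralog, was at 7662, 7577 and 7327 CPM in WT and 5913, 5927 and 5726 CPM in S138A. Both were below WT in every S138A library (log2 fold changes -0.56 ± 0.11 and -0.36 ± 0.09 (SE), adjusted p = 0.187 and 0.198, and 0.00582 and 0.0106 with the block). *Smad7*, the inhibitory SMAD that recruits SMURF ligases to receptors, was at 70.5, 72.8 and 68.3 CPM in WT and 84.9, 95.8 and 94.5 CPM in S138A. *Htra2*, a mitochondrial protease that antagonises XIAP, was at 30.5, 30.6 and 28.6 CPM in WT and 36.6, 41 and 47.7 CPM in S138A. Both were above WT in every S138A library (0.38 ± 0.09 and 0.48 ± 0.13, adjusted p = 0.199 and 0.21, and 0.0161 and 0.0224 with the block).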

How the data were processed

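PolyA RNA was measured in 3 wild-type and 3 S138A libraries. Per the labels, the authors used CASAVA version 1.8.4 for base calling and TopHat2 version 2.0.11 for alignment to mm9 (NCBIM37), and they deposited raw counts of reads per gene from featureCounts, whose version, strand setting and treatment of reads that fit several genes are not given in the sources used here. Diluted ERCC RNA (2 µl) was added to each sample, but the table holds 0 spike-in rows, so no spike-in scaling was run. The table has 0 rows that name no gene and 0 unused columns. S138A columns were assigned to the genotype as the only other group. The columns gave 33227593 to 37169770 counts. Counting error differed between the members, whose lowest count was 144 (*Birc3* in WT 2).

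Symbols were matched by identifier for 32897 genes (87.4%). Genes were filtered with filterByExpr (minimum count 10, minimum total 15), scaled by TMM and tested with the quasi-likelihood test of edgeR version 4.0.16 (R version 4.3.3), with Benjamini-Hochberg adjustment over all genes tested. Standard errors were taken as the absolute log2 fold change over the square root of F. The tests were run on simulated data. The outcome is not given here, and it does not show which of the fits suits these libraries. Alternatives used RLE or upper-quartile factors, no filter beyond 1 count or a filter of 1 CPM, DESeq2 version 1.42.0 without independent filtering, limma-voom (limma version 3.58.1), a block, each library left out, 4 libraries, and stricter thresholds. The log2 ratios of the libraries that stand apart used a pseudocount of 0.5 CPM.

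Whether replicate numbers pair the libraries was examined with the correlation of deviations from group means, which was 0.53, 0.493 and 0.753 when the last digit of each S138A column was taken as its number. Pairing 1 and 2 crosswise gave 0.515 and 0.526, so the pairing of those 2 numbers is not fixed by the data, and it comes from column names.

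Lengths, positions and sequences came from GENCODE M21 and RefSeq on GRCm38, another build than that of the counts. The members, the lists and the tests were chosen with earlier results of these data known. Values in every library were given for *Stub1*, the 6 highest and 4 lowest members in WT level per kilobase, members called in the comparison or with the block, the 6 smallest p-values, pairs that did not overlap, and up to 4 genes of each other list by p-value. *Xiap*, *Rnf168*, *Birc2*, *Ubr4*, *Siah1b* and *Wwp1*, the pairs that overlapped, *Nbr1*, *Jmjd8* and *Ube2d3* were added after their values were seen. Figures were drawn with Python version 3.11.15 and matplotlib version 3.10.9.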

Additional observations from a re-analysis of the deposited data

How the results depend on the processing

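Between S138A and WT, 0 genes and 0 members were called with RLE or upper-quartile factors, a filter of 1 CPM and limma-voom. An adjusted p under 0.01 also gave 0, which had to follow from 0 calls under 0.05. Without a filter beyond 1 count 4 genes were called, with DESeq2 781 genes and 2 members, with the replicate block 3180 genes and 5 members, and in the 4 libraries without WT 3 and S138A C 4756 genes and 13 members. The cause of these differences was not tested. Leaving out 1 library gave 0 to 79 genes, the 79 without S138A C, and 0 members each time. Pairs whose count ratios did not overlap numbered 3 per kilobase, 4 with the replicate block (all 3 pairings in 1 direction) and 3 to 6 with 1 library left out, 6 without WT 3 and 5 without S138A C. None of these counts could fall below 3. Division by length scales a ratio alike in every library, and pairing or leaving out libraries cannot make separate groups overlap. Of 266 log2 fold changes of 19 members under alternatives, 256 kept their direction. Such agreement is partly built in, since the alternatives refit the same libraries and some of the 19 were picked by their p-values. The 10 that reversed were small. With 1 library left out in turn, *Trim28* ran from -0.312 to 0.0906 (reversed without S138A C), *Rnf4* from -0.109 to 0.0457 (without S138A C, and 0.0026 without WT 1), *Nedd4* from -0.142 to 6.635e-05 (without WT 2), *Birc3* from -0.307 to 0.117 (without WT 3), *Nedd4l* from -0.0214 to 0.202 (without S138A B) and *Huwe1* from -0.0909 to 0.106 (without WT 3, -0.00584 without S138A A and -0.00601 without S138A B), and *Huwe1* was at -0.0323 in the 4 libraries. The median log2 fold change over all genes lay between -0.0122 and 0.0446 under every alternative fit. The members with the lowest counts, *Birc3* and *Siah2*, have the most counting error. The block changed the call of no member other than those 5.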
